A study of Mus musculus with 18 samples.

Results

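The mitochondrial ribosomal protein genes were taken as the rows of the liver expression table whose symbol begins with Mrpl or Mrps followed by a digit, which gave 78 of 19057 genes. The mitochondrion has its own ribosome, built in 2 subunits from ribosomal RNA encoded by mitochondrial DNA and from proteins that nuclear genes encode and that are imported after synthesis in the cytosol. It translates the few proteins encoded by mitochondrial DNA, all of them membrane subunits of the oxidative phosphorylation complexes, so its supply of proteins is set in the nucleus while its products stay in the organelle. By the uniform ribosomal protein names, 51 of the 78 genes encode proteins of the large subunit and 26 encode proteins of the small subunit. Mrps36 belongs to neither, because its product is a component of the 2-oxoglutarate dehydrogenase complex. Among the 77 ribosomal genes, 46 have a bacterial counterpart and 31 encode proteins particular to the mitochondrial ribosome. The symbols mislead for a pair of genes, since Mrps30 (mL65) and Mrps18a (mL66) encode proteins of the large subunit.

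Levels were read by RNA sequencing in livers of ICR mice aged 10 weeks, with 3 mice in each of 6 groups. Con mice were controls on a regular diet with saline, and STZ mice received streptozotocin, which kills pancreatic beta cells and served as a model of type 1 diabetes. A10-FMT mice received STZ and then small intestinal microbiota from donors dosed with alginate oligosaccharide (AOS) at 10 mg/kg, and Con-FMT mice received STZ and then microbiota from control donors. AOS mice and STZ+AOS mice were given AOS at 10 mg/kg without and with STZ, and are known here from the sample labels alone. The donor material was pooled within each donor group. The labels give no detail beyond a mouse number within a group. P-values rest on the spread between the 3 libraries of a group, pooled over all groups fitted together. Values are RPKM, in which a gene's reads are divided by the length of its transcript and by the size of the library.

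All 78 genes passed the limit on low values, for which 3 or more of the 12 libraries outside the AOS and STZ+AOS groups had to reach 1 RPKM, and 10602 genes in all were tested. The summed RPKM of a library ran from 621121 to 806937. The Mup genes, 21 genes for the major urinary proteins that hepatocytes secrete, took 23.7 to 35.8% of it in Con and 0.0274 to 19.2% in STZ, where mouse 3 stood apart from the other two. The factors that median-ratio scaling gave to the 18 libraries were 0.841 to 0.921 in Con and 1.00 to 1.11 in STZ, so that the median of all genes was 0.21 higher in STZ than in Con on the log2 scale before scaling. Each comparison is therefore given with the deposited RPKM and again after median-ratio scaling, which divides a library by the median ratio of its genes to their means over the libraries. Hepatocyte markers (Alb, Ttr, Apoa1, Serpina1a, Cps1) summed to 33126 to 54376 RPKM in the 18 libraries, and 1 of the 5 was called higher and 3 were called lower in STZ than in Con. Cd3e, Cd8a and Ms4a1 of lymphocytes and Epcam of cholangiocytes stayed under 1 RPKM in every library. Whole liver was sequenced, and fewer cells of a type cannot be told apart from less RNA per cell.

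The 78 genes lie on 17 chromosomes of GRCm38 (GENCODE M21). The 250 bases before and 50 after the annotated start were given by RefSeq (GRCm38.p6) for 69 of them in 75 windows. Regulators of nuclear genes for mitochondrial proteins include NRF1, the ETS factor GABP and YY1, so 3 short motifs were searched on both strands. The NRF1 motif GCGCANGCG was in the windows of 16 of 69 genes (23.2%), against 15.9% of the 8441 tested genes with a window and 7.03% of all 27025 genes with one. The ETS motif CCGGAAG was in 26 (37.7%), against 21.2% and 9.93%. The YY1 motif AAGATGGC was in 12 (17.4%), against 5.64% and 3.19%. At least 1 of the 3 motifs was in 44 of 69 genes (63.8%), against 36.6% of tested genes. In 4 of the 75 windows, matches shared bases with each other.

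The windows of 4 genes to which the results below return are shown 5′ to 3′ on the strand of the gene, with the motif matches in capitals. Mrpl12 (chr11:120484387-120484686, plus strand) and Mrpl3 (chr9:105053018-105053317, plus strand) were called higher in STZ with the deposited RPKM. Mrps12 (chr7:28741772-28742071, minus strand) and Mrpl22 (chr11:58171414-58171713, plus strand) had the lowest changes after scaling. The scales differ, since Mrpl3 was not called after scaling, and Mrps12 and Mrpl22 were not called with the deposited RPKM.
Mrpl12: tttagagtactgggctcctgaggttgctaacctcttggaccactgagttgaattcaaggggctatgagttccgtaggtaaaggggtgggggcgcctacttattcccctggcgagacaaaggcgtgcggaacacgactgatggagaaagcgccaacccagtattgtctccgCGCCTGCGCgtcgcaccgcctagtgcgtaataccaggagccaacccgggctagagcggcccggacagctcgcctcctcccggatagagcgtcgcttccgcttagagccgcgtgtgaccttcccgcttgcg
Mrpl3: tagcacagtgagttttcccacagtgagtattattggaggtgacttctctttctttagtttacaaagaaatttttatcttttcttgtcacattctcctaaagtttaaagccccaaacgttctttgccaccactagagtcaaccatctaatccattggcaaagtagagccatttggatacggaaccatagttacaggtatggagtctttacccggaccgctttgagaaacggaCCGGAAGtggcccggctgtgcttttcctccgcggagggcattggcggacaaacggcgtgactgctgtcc
Mrps12: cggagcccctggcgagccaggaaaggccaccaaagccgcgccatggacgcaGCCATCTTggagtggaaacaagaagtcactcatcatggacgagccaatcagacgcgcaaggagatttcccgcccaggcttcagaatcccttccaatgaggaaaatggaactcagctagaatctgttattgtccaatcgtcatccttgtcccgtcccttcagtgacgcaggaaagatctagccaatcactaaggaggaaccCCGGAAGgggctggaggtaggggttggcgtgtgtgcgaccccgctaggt
Mrpl22: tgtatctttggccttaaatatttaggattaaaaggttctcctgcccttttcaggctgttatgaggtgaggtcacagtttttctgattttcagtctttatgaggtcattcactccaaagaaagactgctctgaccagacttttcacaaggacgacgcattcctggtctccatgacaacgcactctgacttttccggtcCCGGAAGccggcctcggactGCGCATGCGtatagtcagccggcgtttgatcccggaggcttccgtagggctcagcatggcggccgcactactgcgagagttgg
With the start counted as 0, the match in Mrpl12 began at -80 and was the reverse of the NRF1 motif, and that in Mrpl3 began at -19 and was the ETS motif. Mrps12 held the reverse of the YY1 motif at -199 and the ETS motif at 1, and Mrpl22 held the ETS motif at -53 and the NRF1 motif at -33. In STZ against Con, 5 of 16 genes with the NRF1 motif, 5 of 26 with the ETS motif, 2 of 12 with the YY1 motif and 5 of 25 with none were called higher, where 33.0% of all genes tested were. The median changes of these 4 sets after scaling lay between -0.08 and 0.00, and the sets were not tested against each other.

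Many of the genes stand beside a gene read in the other direction. A protein-coding gene on the opposite strand started within 1000 bases upstream of 18 of the 78 genes (23.1%), against 6.77% of 22028 protein-coding genes. That background holds all annotated protein-coding genes, tested here or not, whereas all 78 genes were tested. The share among tested genes is not given here. Mrps12 was one of them, 172 bases from Sars2, the mitochondrial seryl-tRNA synthetase. The exons of 33 genes overlapped an exon of another annotated gene, and of 23 genes an exon of a protein-coding gene. The strand setting of the read counting is not given in the sources used here, so reads of such pairs could have been assigned to either gene. Among genes described below, this holds for Mrpl3, Mrpl12, Mrpl13, Mrpl14, Mrpl19, Mrpl27, Mrps7, Mrps25 and Mrps30.

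**Figure D1:**
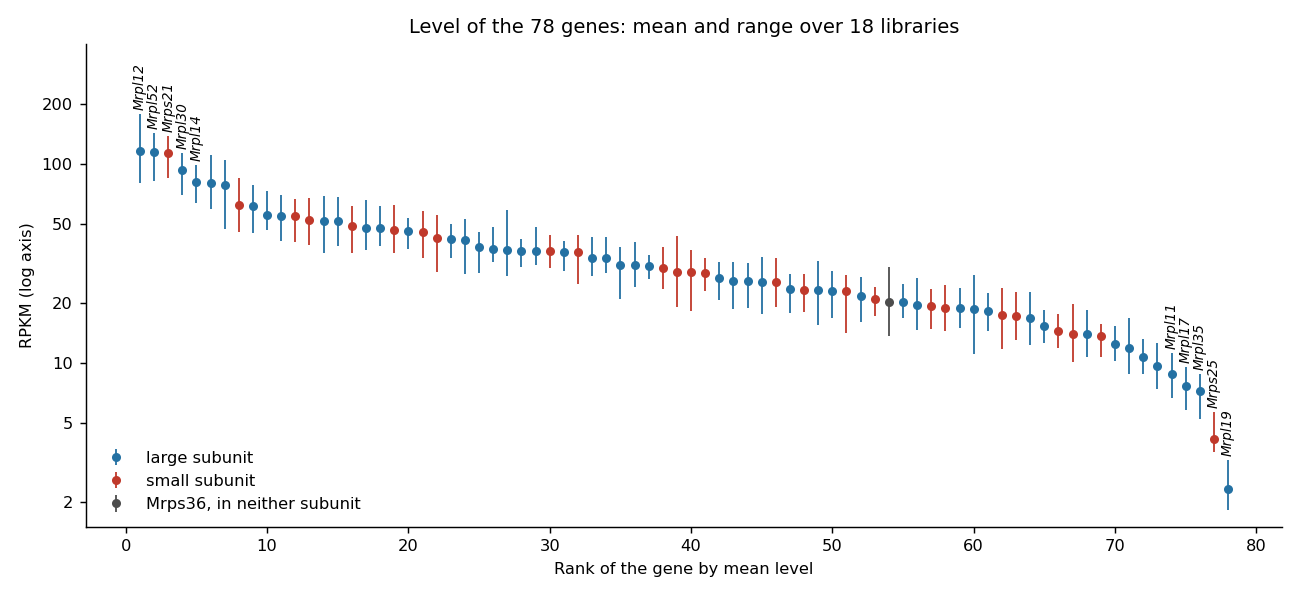
Mean RPKM of each of the 78 genes over the 18 libraries (points, log axis) with the lowest and highest library (bars), ordered by mean and coloured by subunit. The means ran from 115 RPKM (Mrpl12) to 2.33 RPKM (Mrpl19) with both subunits spread along the order.

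Most proteins of the particle are held in a single copy, and the levels of their mRNAs were spread widely. Over the 18 libraries the mean RPKM, a level per transcript length, had a median of 28.5 over the 78 genes and a 49.5-fold range. Mrpl12 (bL12m, the stalk protein that recruits translation factors) at 115 RPKM, Mrpl52 (mL52) at 115 RPKM, Mrps21 (bS21m) at 113 RPKM, Mrpl30 (uL30m) at 92.9 RPKM and Mrpl14 (uL14m, at the subunit interface) at 80.8 RPKM were the highest. The range of Mrpl12 over the libraries, 79.63 to 177.39 RPKM, covered those of Mrpl52 and Mrps21, so the order of these genes is not set beyond their spread. Mrpl19 (bL19m, at the subunit interface) at 2.33 RPKM, Mrps25 (mS25) at 4.16 RPKM, Mrpl35 (bL35m) at 7.18 RPKM, Mrpl17 (bL17m, at the rim of the exit tunnel) at 7.62 RPKM and Mrpl11 (uL11m, of the stalk base) at 8.78 RPKM were the lowest. Mrpl19 did not exceed 3.24 RPKM in any library, and its range did not reach that of Mrps25.

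Large subunit genes had a median of 31.0 RPKM and small subunit genes a median of 28.3 RPKM. Genes with a bacterial counterpart had a median of 34.7 RPKM and those particular to the mitochondrion a median of 25.9 RPKM. The cytosolic ribosomal protein genes had a median of 367 RPKM and the oxidative phosphorylation subunit genes a median of 194 RPKM. The order of the 78 genes was similar in all libraries, with Spearman's rho between 0.931 and 0.992 over the 153 pairs of libraries, each a correlation across genes that share a library.

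**Figure D2:**
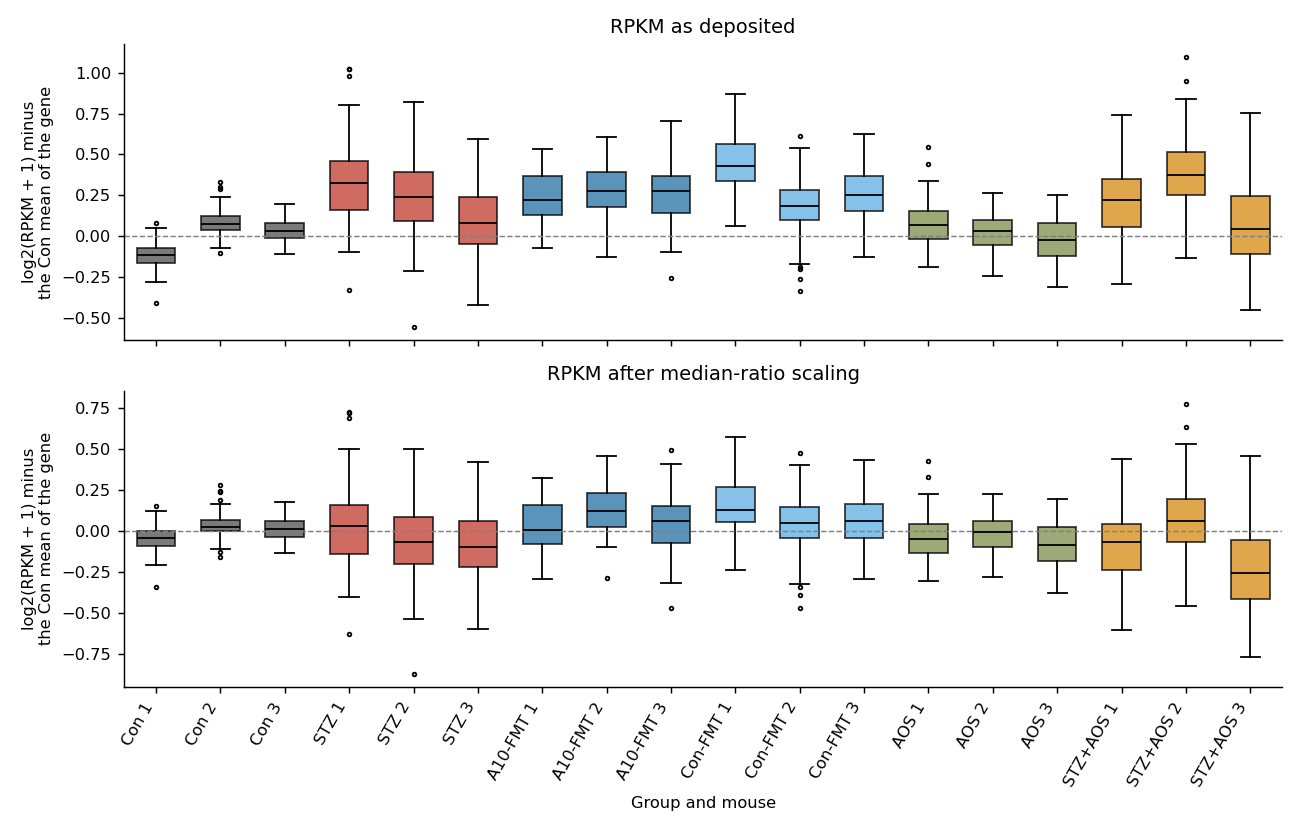
Change of the 78 genes in each mouse from the Con mean of the same gene, on the log2(RPKM + 1) scale, as deposited (top) and after median-ratio scaling (bottom); boxes give the median and quartiles over genes, whiskers reach 1.5 times the box and points lie beyond. The medians of all 3 A10-FMT mice and all 3 Con-FMT mice lay above 0 in both panels, while those of STZ and STZ+AOS mice moved to either side of 0 after scaling.

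In each mouse the 78 genes were summarised by the median of their changes from the Con mean. With the deposited RPKM this median was 0.32, 0.24 and 0.08 in STZ mice 1, 2 and 3, on the log2(RPKM + 1) scale. It was 0.22, 0.28 and 0.28 in A10-FMT mice and 0.43, 0.18 and 0.25 in Con-FMT mice, against -0.12, 0.08 and 0.03 in Con mice. It was 0.07, 0.03 and -0.03 in AOS mice and 0.22, 0.37 and 0.04 in STZ+AOS mice. Apart from mouse 3 of STZ and mouse 3 of STZ+AOS, all mice given STZ lay at 0.18 or above, and all mice not given STZ lay at 0.08 or below. After scaling, the median was 0.03, -0.07 and -0.10 in STZ mice and -0.07, 0.06 and -0.26 in STZ+AOS mice, and both groups overlapped Con. It was 0.01, 0.12 and 0.06 in A10-FMT mice and 0.13, 0.05 and 0.06 in Con-FMT mice, and the lowest A10-FMT mouse lay within the Con range of -0.05 to 0.02.

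The first question was whether STZ changed these genes. With the deposited RPKM, 19 of the 78 genes were called higher in STZ than in Con and 0 were called lower (limma, adjusted p under 0.05). This was 24.4% of them, where 38.5% of all genes tested were called and 33.0% were called higher, so the count lay below the background. Their median change was 0.22 and that of all genes was 0.21, and 41 of the 78 lay above the median of all genes. In 31 of them (39.7%) all STZ mice lay above all Con mice, against 40.8% of all genes. After median-ratio scaling, 8 genes (10.3%) were called, 2 higher and 6 lower, against 27.1% of all genes, of which 14.0% were higher and 13.1% lower. The median change was then -0.03 for the 78 genes and -0.01 for all genes. The marker sums of other cells moved with the groups: Kupffer cell markers were at 80.9 to 182 RPKM in STZ and 51.3 to 80.0 RPKM in Con, and stellate cell markers at 113 to 144 RPKM and 74.6 to 91.3 RPKM, and their part in the result was not tested. In each of these lists 1 of 5 markers was called higher, Marco among the Kupffer cell markers and Dcn among the stellate cell markers. Both were named after their values were seen.

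The Mup share moved with the groups too, and it was taken out by setting the summed RPKM of all other genes equal in every library, a setting chosen after seeing the data. Then 10 of the 78 genes were called higher and 3 lower, while 28.4% of all genes were called. The count also rested on single mice. It was 32 (41.0%) without STZ mouse 3, where 47.3% of all genes were called. It was 6 without Con mouse 1, 9 without Con mouse 3 or STZ mouse 1 (with 1 of the latter 9 lower) and 8 without STZ mouse 2, or 7.69 to 11.5%, where 24.3 to 30.1% of all genes were called. Fitting the STZ and Con libraries alone gave 9 (11.5%), where 25.2% of all genes were called.

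All 8 genes that came first by adjusted p were higher in STZ. Mrps35 (mS35, of the small subunit head) was at 19.23, 21.42 and 19.14 RPKM in Con and at 41.41, 35.41 and 26.32 RPKM in STZ. The groups did not overlap, and the change was 0.74 ± 0.15 (SE, n = 3; limma, adjusted p = 0.0041), or 0.48 ± 0.12 after scaling (limma, adjusted p = 0.015). Mrpl12 was at 80.82, 90.26 and 89.21 RPKM in Con and at 177.39, 153.89 and 102.27 RPKM in STZ, again without overlap. Its change was 0.69 ± 0.18 (limma, adjusted p = 0.0119), or 0.43 ± 0.14 after scaling (limma, adjusted p = 0.0465). These were the genes called higher on both scales, but Mrpl12 missed the threshold after median centring and quantile normalization.

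Mrpl3 (uL3m, a core protein of the large subunit) was tighter between mice. It was at 8.78, 9.55 and 8.75 RPKM in Con and at 13.29, 13.63 and 13.35 RPKM in STZ. Its change was 0.53 ± 0.12 (limma, adjusted p = 0.00593) and 0.28 ± 0.10 after scaling (limma, adjusted p = 0.0547). Mrpl16 (uL16m) rose from 15.02 ± 0.746 to 21.9 ± 3.28 RPKM (mean ± SD, n = 3) and Mrpl13 (uL13m) from 39.2 ± 3.84 to 59.2 ± 8.44 RPKM, without overlap in either gene. Mrps9 (uS9m, of the small subunit head) rose from 12.7 ± 0.833 to 19.6 ± 3.71 RPKM. Mrps31 (mS31) rose from 21.9 ± 3.21 to 30.2 ± 2.63 RPKM and Mrps23 (mS23) from 11.3 ± 0.660 to 14.5 ± 0.289 RPKM. After scaling none of these 6 genes passed the test, with changes of 0.08 (Mrps23) to 0.32 (Mrps9). Mrpl15 (uL15m), called with the deposited RPKM, had a change of 0.44 ± 0.16 after scaling, the second largest, at 11.07, 16.75 and 13.35 RPKM in Con and 27.65, 24.28 and 16.86 RPKM in STZ.

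The 6 genes called lower after scaling all encode proteins with a bacterial counterpart, as do 46 of the 78 genes. Of all genes 13.1% were called lower after scaling, and with the deposited RPKM none of the 6 was called. Mrps12 (uS12m, at the decoding centre, where the codon is checked against the tRNA) was at 42.72, 43.75 and 41.88 RPKM in Con and at 39.83, 28.76 and 34.9 RPKM in STZ. Every STZ mouse was below every Con mouse on the deposited scale as well. Its change was -0.31 ± 0.12 (limma, adjusted p = 0.0569) and -0.58 ± 0.12 after scaling (limma, adjusted p = 0.00545). Sars2, its divergent neighbour, was at 5.35 to 7.87 RPKM in Con and 7.17 to 7.44 RPKM in STZ, and the groups overlapped.

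Mrpl22 (uL22m) was at 34.67, 38.7 and 36.42 RPKM in Con and at 28.88, 32.57 and 34.68 RPKM in STZ, and Mrpl4 (uL4m) was at 30.29, 32.56 and 33.29 RPKM in Con and at 32.08, 30.62 and 26.32 RPKM in STZ. Both proteins line the exit tunnel of the large subunit. The groups overlapped on the deposited scale in each gene and were apart after scaling, where the changes were -0.45 ± 0.10 and -0.37 ± 0.08 (limma, adjusted p = 0.00951 and 0.00617). Mrps21, Mrpl19 and Mrps7 (uS7m, of the small subunit head; named after its values were seen) had changes of -0.33, -0.29 and -0.28 after scaling and of -0.06, -0.10 and -0.02 before it. They were level on one scale and lower on the other, and in Mrps21 and Mrps7 the sign of the small deposited change turned when single mice were left out.

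**Figure D3:**
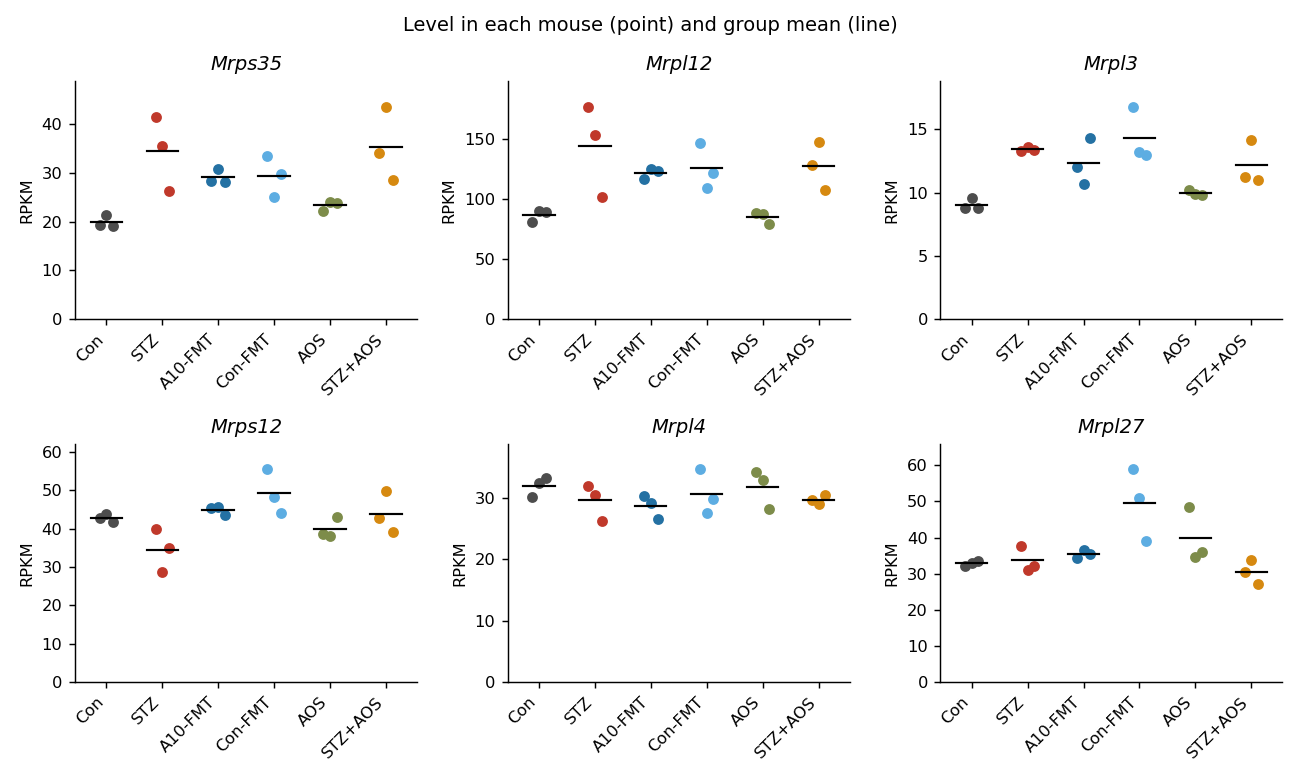
RPKM of 6 genes in each mouse (points) with the mean of each group (line), axes from 0. Mrps35, Mrpl12 and Mrpl3 were higher in every STZ mouse than in any Con mouse, Mrps12 was lower in every STZ mouse, Mrpl4 overlapped between Con and STZ, and Mrpl27 was highest in Con-FMT.

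Counts were also taken by subunit and by origin. With the deposited RPKM, 11 of 51 large subunit genes and 8 of 26 small subunit genes were called higher in STZ, and the median changes were 0.22 and 0.23. Of the genes with a bacterial counterpart 10 of 46 were called higher, and of those particular to the mitochondrion 9 of 31, with median changes of 0.21 and 0.24. After scaling the counts were 1 higher and 6 lower against 1 higher and 0 lower, with medians of -0.04 and -0.03. Of all genes, 33.0% were called higher with the deposited RPKM, and 14.0% higher and 13.1% lower after scaling. These splits were not tested.

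STZ+AOS and AOS mice gave a second comparison of STZ, with none of the mice of the first. Here 18 of the 78 genes (23.1%) were called higher and 0 lower (limma, adjusted p under 0.05), against 37.9% of all genes called and 31.8% called higher. The median change was 0.18 for the 78 genes and 0.21 for all genes. After scaling, 3 were called higher and 4 lower, against 24.4% of all genes called, 12.1% higher and 12.3% lower. Without STZ+AOS mouse 3, the library with the lowest scaled median, 24 genes (30.8%) were called with the deposited RPKM, against 32.1% of all genes. The count was 9 without AOS mouse 3, 11 without AOS mouse 2 and 12 without STZ+AOS mouse 2, against 27.4, 25.6 and 37.5% of all genes. Fitting the AOS and STZ+AOS libraries alone gave 10, against 22.9%. Marker sums moved with these groups as well. Kupffer cell markers were at 64.0 to 90.8 RPKM in AOS and 92.8 to 125 RPKM in STZ+AOS, stellate cell markers at 91.3 to 106 RPKM and 143 to 165 RPKM, and the 3 erythroid markers tested at 2111 to 2608 RPKM and 279 to 1501 RPKM. Their part in the result was not tested.

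The same 9 genes were called higher in both comparisons, which was 47.4% of the 19 and 9 of the 18. Of all genes called higher, 2424 were so in both, which was 69.2% of those in the first and 71.8% of those in the second. They were Mrpl12, Mrpl15, Mrpl16, Mrpl50, Mrps9, Mrps23, Mrps30, Mrps31 and Mrps35, and after scaling none of the 9 was called in both. Across the 78 genes the changes after scaling had the same sign in 60 and a Pearson's r of 0.694, against 0.879 across all genes tested, which are correlations across genes and carry no test. Mrpl50 (mL50) had the smallest adjusted p in the second comparison, at 20.23, 18.82 and 17.67 RPKM in AOS and 26.95, 30.12 and 28.68 RPKM in STZ+AOS. Its change was 0.57 ± 0.12 (limma, adjusted p = 0.00189), or 0.33 ± 0.09 after scaling (limma, adjusted p = 0.0131). Mrps31 (0.55 ± 0.11) and Mrps23 (0.51 ± 0.11) followed, and these were the 3 genes called higher after scaling.

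Mrpl4 and Mrps7 were called lower after scaling in both comparisons, by 0.37 and 0.28 in the first and by 0.33 and 0.31 in the second as decreases on the log2 scale. Mrpl27 (bL27m, next to the peptidyl transferase centre) and Mrps28 (bS1m, named after its values were seen) were the others called lower in the second, with changes of -0.60 and -0.40 after scaling. Mrps12 overlapped between the groups there, at 38.51, 38.02 and 43.0 RPKM in AOS and 42.87, 49.92 and 39.11 RPKM in STZ+AOS. The difference between its STZ effects was 0.45 ± 0.17, with the smallest unadjusted p of the 78 genes, and did not pass the test (limma, adjusted p = 0.855). None of the 78 genes and 0.00% of all genes passed the test of that difference.

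**Figure D4:**
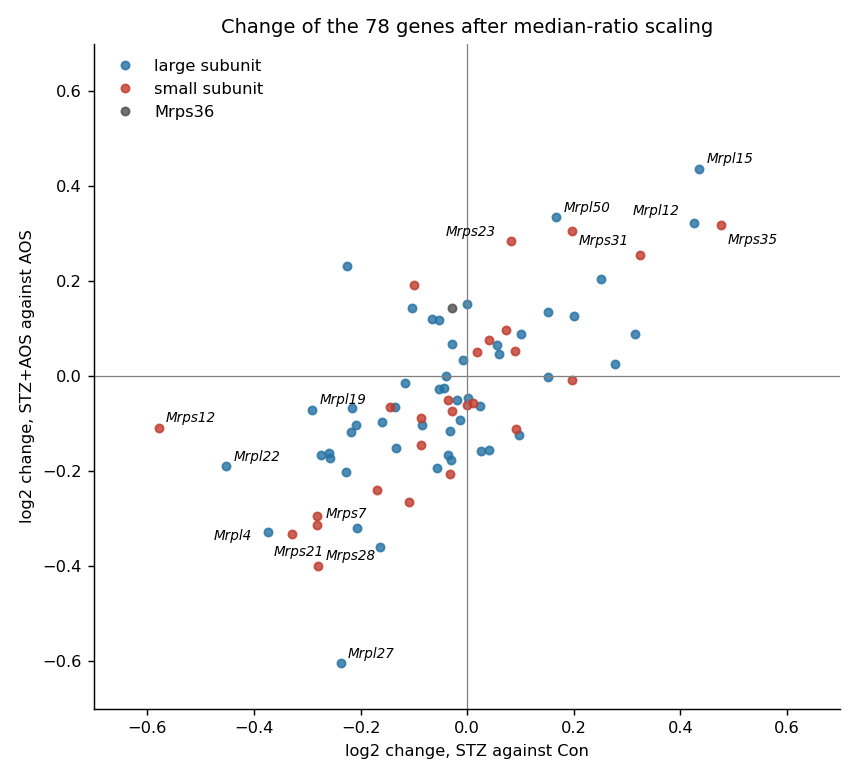
Change of each of the 78 genes after median-ratio scaling (log2 scale) in STZ against Con (horizontal) and in STZ+AOS against AOS (vertical), coloured by subunit, with names at genes called in either and at Mrpl15. Mrps35, Mrpl12 and Mrpl15 lie at the upper right, Mrpl4, Mrps7, Mrps21 and Mrps28 at the lower left, and Mrps12 is far to the left but near 0 on the vertical axis.

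The next question was whether microbiota transfer changed the genes in mice given STZ. In A10-FMT against STZ 0 of the 78 genes were called (limma, adjusted p under 0.05; 4 had an unadjusted p under 0.05), against 0.226% of all genes. In Con-FMT against STZ 0 were called (5 at an unadjusted p under 0.05), against 0.00943% of all genes. The 78 genes had a median change of 0.03 with A10-FMT and 0.08 with Con-FMT, while all genes had -0.05 and -0.03. In 9 genes (11.5%) every A10-FMT mouse lay above every STZ mouse, against 7.61% of all genes, and in 7 (8.97%) every Con-FMT mouse did, against 8.32%. After scaling these numbers were 22 (28.2%), against 11.1% of all genes, and 19 (24.4%), against 10.9% of all genes. The median changes were then 0.10 and 0.13, where those of all genes were both 0.01. Both comparisons use the same 3 STZ mice. The 3 erythroid markers tested summed to 2269 to 6825 RPKM in Con-FMT, above the 422 to 1636 RPKM of STZ and the 1035 to 1970 RPKM of Con in every mouse, and their part in the Con-FMT values was not tested. Without STZ mouse 3, 3 genes were called higher and 1 lower in Con-FMT against STZ, and 15.5% of all genes were called. In A10-FMT against STZ, leaving out that mouse gave 0 of the 78 genes and 12.7% of all genes.

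Mrps12 had the smallest unadjusted p of the 78 genes in both. It was at 45.35, 45.58 and 43.5 RPKM in A10-FMT and at 55.54, 48.2 and 44.01 RPKM in Con-FMT, above the 28.76 to 39.83 RPKM of STZ in all 6 mice, where Con was at 41.88 to 43.75 RPKM. The change was 0.38 ± 0.12 in A10-FMT (limma, adjusted p = 0.127) and 0.51 ± 0.12 in Con-FMT (limma, adjusted p = 0.0754), so it did not pass the test in either. Over the settings tried, the adjusted p ran from 0.0665 to 0.408 in A10-FMT and from 0.0289 to 0.377 in Con-FMT, and it was under the threshold without STZ mouse 3 in Con-FMT alone. STZ+AOS against STZ uses the same 3 STZ mice, and Mrps12 had the smallest p of the 78 genes there. Its change was 0.35 ± 0.12 (limma, adjusted p = 0.808), and STZ+AOS mouse 3 at 39.11 RPKM lay within the STZ range. In that comparison 0 of the 78 genes and 0.00% of all genes were called, and 2 of the 78 had an unadjusted p under 0.05.

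The transfer groups were then set against Con, which asks how far they stood from mice without STZ. In A10-FMT 11 of the 78 genes (14.1%) were called higher and 0 lower (limma, adjusted p under 0.05), against 18.4% of all genes called and 15.9% called higher. In Con-FMT 20 (25.6%) were called higher and 0 lower, against 19.4% and 17.5%. With the deposited RPKM, every A10-FMT mouse lay above every Con mouse in 57 genes (73.1%), against 41.7% of all genes. Every Con-FMT mouse did in 50 (64.1%), against 40.7%. The 78 genes had a median change of 0.25 with A10-FMT and 0.29 with Con-FMT, while all genes had 0.16 and 0.19. After scaling 1 gene was called lower in A10-FMT (Mrpl4, named after its values were seen), against 10.9% of all genes called, and 2 were called higher in Con-FMT (Mrpl3 and Mrpl16), against 8.17%. The median change stayed above 0 at 0.06 and 0.08. The separation from Con depended on the scale. Genes above their Con mean numbered 75, 77 and 73 in the A10-FMT mice as deposited, and 42, 65 and 47 after scaling. In the Con-FMT mice they numbered 78, 67 and 72, and 64, 48 and 49 after scaling. Fitting the A10-FMT and Con libraries alone gave 27 (34.6%), where 31.9% of all genes were called, and no limit on low values gave 5 (6.41%), where 8.07% were. The count of 11 was 0 without Con mouse 1, Con mouse 3, A10-FMT mouse 1 or A10-FMT mouse 3. In those fits 5.44 to 8.14% of all genes were called. It was 3 (3.85%) without A10-FMT mouse 2, where 10.9% of all genes were called. The count of 20 was 3 without Con mouse 1 or Con-FMT mouse 1, 5 without Con mouse 3 and 6 without Con-FMT mouse 3. These were 3.85 to 7.69% of the 78 genes, where 5.66 to 9.45% of all genes were called.

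Mrps31, Mrpl13 and Mrpl50 had the smallest adjusted p in A10-FMT against Con. Mrps31 was at 30.81, 29.44 and 31.0 RPKM against 18.25 to 24.37 RPKM in Con, a change of 0.47 ± 0.12 (limma, adjusted p = 0.0228). Mrpl13, at 55.56, 58.21 and 56.03 RPKM, changed by 0.52 ± 0.14, and Mrpl50, at 26.91, 28.64 and 28.53 RPKM, by 0.47 ± 0.13. In Con-FMT against Con the genes were Mrps23, Mrpl3 and Mrpl16. Mrps23 was at 17.2, 15.13 and 15.57 RPKM against 10.57 to 11.85 RPKM in Con, a change of 0.46 ± 0.09 (limma, adjusted p = 0.00818). Mrpl3, at 16.81, 13.21 and 13.0 RPKM, changed by 0.61 ± 0.12, and Mrpl16, at 26.59, 19.91 and 21.82 RPKM, by 0.56 ± 0.12. In each of these 6 cases the groups did not overlap.

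Groups that differed in donor or in AOS alone gave no calls among the 78 genes. In A10-FMT against Con-FMT 0 of the 78 genes and 0.00% of all genes were called (1 of the 78 had an unadjusted p under 0.05), and in AOS against Con 0 of the 78 and 0.00943% of all genes (0 of the 78 at an unadjusted p under 0.05). Mrpl27 had the smallest p in both. It was at 58.93, 50.91 and 38.97 RPKM in Con-FMT and 34.33, 36.57 and 35.55 RPKM in A10-FMT, a change of -0.45 ± 0.13 from Con-FMT to A10-FMT (limma, adjusted p = 0.999). It was at 48.48, 34.73 and 36.09 RPKM in AOS and 32.23, 32.96 and 33.53 RPKM in Con, a change of 0.25 ± 0.15 (limma, adjusted p = 0.765). The groups did not overlap in either pair, and in both pairs the higher group was the more widely spread.

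Genes that work with the mitochondrial ribosome were read from lists. Of 5 ribosomal proteins of the organelle that carry other names, Dap3 (mS29) and Ptcd3 (mS39) were called higher in STZ against Con. The others were not, and 33.0% of all genes were called higher. Ptcd3 was not called after scaling, with a change of 0.09 (limma, adjusted p = 0.425). Dap3 was at 18.5, 20.53 and 19.76 RPKM in Con and 33.1, 28.08 and 24.51 RPKM in STZ, a change of 0.51 ± 0.11 (limma, adjusted p = 0.00463), and of 0.25 after scaling, still called. Gadd45gip1 (mL64) was at 15.6, 19.11 and 16.95 RPKM in Con and 15.24, 15.48 and 14.69 RPKM in STZ, and after scaling it was called lower with a change of -0.43.

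Of 19 tested genes for mitochondrial translation factors and related proteins, 5 were called higher and 0 lower, with a median change of 0.18. This was less than the 33.0% of all genes called higher. Gfm1, the elongation factor that moves the ribosome along the mRNA, was at 21.5, 29.96 and 27.95 RPKM in Con and 42.76, 47.85 and 43.69 RPKM in STZ, a change of 0.75 ± 0.12 (limma, adjusted p = 0.00133). Tufm, which brings aminoacyl-tRNA to the ribosome, was at 48.16, 59.56 and 56.1 RPKM in Con and 97.69, 80.99 and 82.48 RPKM in STZ, a change of 0.66 ± 0.12. Lrpprc, which stabilises mitochondrial mRNA, was at 23.17, 28.98 and 26.94 RPKM in Con and 38.07, 34.82 and 41.64 RPKM in STZ, a change of 0.52 ± 0.11. After scaling Gfm1 and Tufm were called with changes of 0.49 and 0.40, and the list held 3 higher and 2 lower. Of 17 mitochondrial tRNA synthetases 5 were called higher and 0 lower, and 0 on either side after scaling. Of 26 assembly factors of the ribosome 6 were called higher and 0 lower, and 0 and 4 after scaling. Of 11 genes for mitochondrial DNA maintenance and transcription 4 were called higher and 0 lower, and 1 and 2 after scaling. All genes gave 33.0% higher as deposited, and 14.0% higher and 13.1% lower after scaling, and no list was tested against them.

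Of 12 tested regulators of mitochondrial biogenesis, 10 were called higher in STZ and 0 lower, and 4 and 0 after scaling, beside the same shares of all genes. Ppargc1a, the coactivator that drives genes for mitochondrial proteins, was at 0.56, 0.77 and 0.68 RPKM in Con and 4.72, 8.84 and 2.98 RPKM in STZ, and the change was 1.86 ± 0.28 (limma, adjusted p = 0.00105). It was at 1.81 to 2.48 RPKM in A10-FMT, 1.34 to 3.07 RPKM in Con-FMT, 0.82 to 0.91 RPKM in AOS and 4.27 to 8.48 RPKM in STZ+AOS. Nrf1 was at 2.56 to 2.80 RPKM in Con and 3.17 to 4.80 RPKM in STZ, and Gabpa at 8.09 to 10.07 and 11.57 to 13.25 RPKM. Ppargc1a was still called after scaling, with a change of 1.71, while Nrf1 at 0.13 (limma, adjusted p = 0.409) and Gabpa at 0.18 (limma, adjusted p = 0.14) were not. These genes were named after their values were seen.

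**Figure D5:**
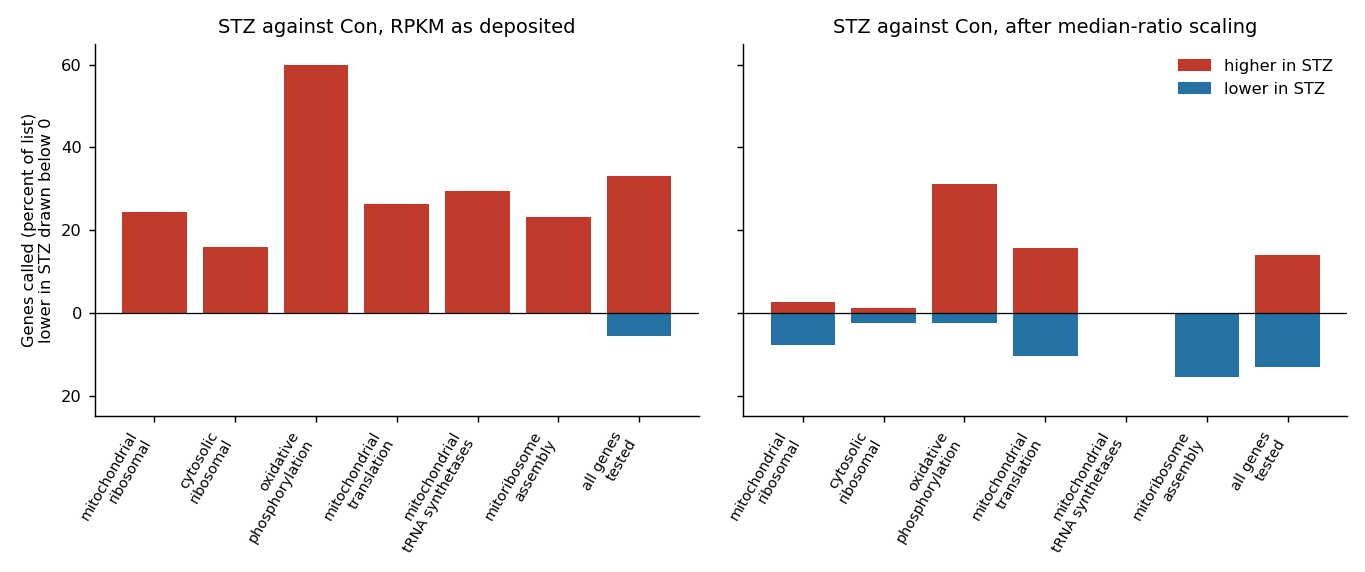
Share of each list called in STZ against Con (limma, adjusted p under 0.05), higher in STZ above 0 and lower below 0, with the deposited RPKM (left) and after median-ratio scaling (right). The mitochondrial ribosomal bar (24.4%, then 2.56% higher and 7.69% lower) is under that of all genes in both panels, and the oxidative phosphorylation bar is above it.

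Genes for the other ribosome of the cell and for the respiratory complexes gave other counts. Of 82 cytosolic ribosomal protein genes, 13 were called higher in STZ and 0 lower, with a median change of 0.33, and 1 and 2 after scaling, with a median of 0.06. Of 80 genes for nuclear-encoded oxidative phosphorylation subunits, the partners of the proteins that the mitochondrial ribosome makes, 48 were called higher and 0 lower, with a median change of 0.52. After scaling these counts were 25 and 2, with a median of 0.25, where the 78 mitochondrial ribosomal genes had 2 and 6 and a median of -0.03. In Con-FMT against STZ the median changes after scaling were 0.13 for the mitochondrial ribosomal genes, -0.11 for the cytosolic ribosomal genes and -0.05 for the oxidative phosphorylation genes. In A10-FMT against STZ they were 0.10, -0.07 and -0.04. The differences between lists were not tested.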

How the data were processed

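The liver libraries of 18 mice, 3 in each of 6 groups, were used, and groups were taken from the labelled treatment. Reads were scaled by the authors to transcript length and mapped reads and deposited as RPKM with 2 decimals for 19057 genes. The study's methods name SOAPaligner, while the submitters' processing notes name Bowtie 0.12.2 and mm10. RPKM hold no read numbers, so depth is unknown. Steps between low values could be read in 31 of 964 genes and gave relative depths of 0.937 to 1.08 across libraries. Each library rested on 8 to 20 genes, and several libraries shared the value 0.994, so these readings are coarse. Precision rests on the 3 mice of a group.

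The 78 genes and all lists were chosen with earlier results of these data known. Genes with 1 RPKM or more in at least 3 of 12 libraries (10602) were tested as log2(RPKM + 1) with limma 3.58.1 (R 4.3.3, trend), in 1 model of 12 libraries or, for comparisons with AOS, of 18. A change is a difference on that scale and understates the change of low genes. P-values were adjusted by Benjamini-Hochberg over all genes and called under 0.05; an exact test of 3 against 3 mice cannot go below 0.1. Scaling, filter, pseudocount, model, the replicate block and left-out mice were varied.

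Genes named were, in STZ against Con, up to 8 called per direction by adjusted p; in each other comparison up to 3 called per direction, or the gene with the smallest p; the 5 highest and 5 lowest levels; and the 3 largest and 3 smallest changes in STZ after scaling. From the translation list, up to 3 called per direction were named. No replicate block was used. Count tests were not run, and the mitochondrially encoded genes were not analysed here. Summaries used Python 3.11.15, pandas 2.3.3 and numpy 2.4.6.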

Additional observations from a re-analysis of the deposited data

How the results depend on the processing

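The choice of scaling changed the counts of the 78 genes called. With median-ratio scaling, median centring and quantile normalization the count for STZ against Con was 8, 6 and 9 (19 as deposited). For STZ+AOS against AOS it was 7, 7 and 8 (18), for A10-FMT against Con 1 under each (11), and for Con-FMT against Con 2 under each (20). With the summed RPKM outside the Mup genes set equal, which was chosen after seeing the data, the count for Con-FMT against Con was 7. It was 1 for A10-FMT against Con and 1 for Con-FMT against STZ (0 as deposited). Of all genes, 10.1, 10.2 and 1.57% were called in these comparisons in turn. The median change under these 4 settings in turn was -0.035, -0.022, -0.042 and 0.073 for STZ against Con, and -0.061, -0.070, -0.046 and 0.029 for STZ+AOS against AOS. It was 0.061, 0.080, 0.029 and 0.061 for A10-FMT against Con, and 0.082, 0.090, 0.047 and 0.138 for Con-FMT against Con. Fitting only the groups compared gave 9 calls for STZ against Con, 10 for STZ+AOS against AOS and 27 for A10-FMT against Con. No filter gave 5 for A10-FMT against Con. The shares of all genes called were 25.2, 22.9 and 31.9%, and 8.07% with no filter. Leaving out 1 mouse gave 6 to 32 for STZ against Con, 9 to 24 for STZ+AOS against AOS and 0 to 8 for A10-FMT against Con. It gave 3 to 24 for Con-FMT against Con and 0 to 4 for Con-FMT against STZ. In that order, the shares of all genes called were 24.3 to 47.3%, 25.6 to 37.5%, 5.44 to 14.3%, 5.66 to 19.8% and 0.00 to 15.5%. The mouse numbers share no stated litter, batch or day. Deviations from the group means had a correlation over 0.1 in 15 of 45 same-numbered pairs of mice (median 0.035) and in 17 of 90 other pairs (median -0.012). When each mouse was set against each other group, its own number correlated best in 39 of 90 cases. For 0 of 18 mice did this hold in every other group, which is rare for unrelated mice too and so cannot decide. Whether the numbers mark a shared batch is not settled by these values. The main model left the numbers out because no pairing is described. With the replicate block the count was 14 for STZ against Con, 4 for A10-FMT against Con and 11 for Con-FMT against Con. These were 17.9, 5.13 and 14.1% of the 78 genes, where 35.0, 13.6 and 13.7% of all genes were called.

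Of 136 values of named genes under the scalings, 62 kept their direction and side of the threshold, 40 lost the call and 34 gained one. Of 228 under the other settings 226 kept both, and of 210 with 1 mouse left out 180 did. In STZ against Con, Mrps21 ran from -0.171 to 0.018 (positive without STZ mouse 2) and Mrps7 from -0.100 to 0.031 (positive without Con mouse 2 or 3, at 0.014 and 0.031, or STZ mouse 1, at 0.014), and the cause was not tested. RPKM without read numbers and 3 mice a group limit the precision.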
